A study of Arabidopsis thaliana with 4 samples.

Results

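The genes described here are 10 Arabidopsis thaliana genes for carotenoid cleavage and for the metabolism of abscisic acid (ABA), taken by locus from the 33187 genes of the deposited expression matrix. They are NCED4 (AT4G19170), NCED5 (AT1G30100), NCED6 (AT3G24220), NCED9 (AT1G78390), ABA1 (AT5G67030), ABA2 (AT1G52340), AAO3 (AT2G27150), CYP707A1 (AT4G19230), CYP707A2 (AT2G29090) and CYP707A3 (AT5G45340). The pathway was picked because NCED4 was higher in the mutant, so the genotype difference of NCED4 is given as a description, without a test.

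RNA came from whole developing seeds at 7 days post anthesis, with embryos between the torpedo and linear stages. There were 2 libraries from the wild type and 2 from erf4, a T-DNA insertion line (SALK_073394) in the gene for the ethylene response factor ERF4, titled erf4_2. A single insertion line stands for the mutant. The labels do not state that the 2 libraries per genotype were grown or collected separately, so a p-value compares libraries and may reflect technical spread alone. Every level is in TPM, a gene's length-corrected share of the transcripts of a library, so levels of different genes can be compared within a library.

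ABA is made from carotenoids of the plastid. ABA1, the zeaxanthin epoxidase, makes the epoxycarotenoid precursor, and 9-cis-epoxycarotenoid dioxygenases (NCEDs) cut it to xanthoxin, the step held to limit the rate of synthesis. ABA2 turns xanthoxin into abscisic aldehyde, AAO3 oxidises the aldehyde to ABA, and the CYP707A cytochromes P450 hydroxylate ABA as the first step of its breakdown. In seeds ABA drives maturation and dormancy. NCED4 bears the family name but is also known as CCD4, a carotenoid dioxygenase of plastoglobules that degrades carotenoids and lowers their content in seeds, and it is not counted among the enzymes of ABA synthesis.

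Of the 10 genes, 9 passed the filter of at least 1 TPM in at least 2 libraries. NCED4 and CYP707A1 were higher in both erf4 libraries than in either wild-type library, and NCED6 was lower in both. The libraries of the 2 genotypes overlapped for the other 6 tested genes. Among all 20804 genes tested, 21.5% had both erf4 libraries above the wild type and 12.2% had both below it. The place of NCED4 above the wild type was fixed by the choice of the genes; of the other 8 tested genes 1 lay above and 1 below. The limma fit on log2(TPM + 1) called 0 of 20804 genes (0%) at a Benjamini-Hochberg adjusted p under 0.05. At an unadjusted p under 0.05 the same fit had 1452 genes (6.98%), and a comparison of 2 against 2 libraries cannot give an exact two-sided permutation p below 0.333.

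**Figure D1:**
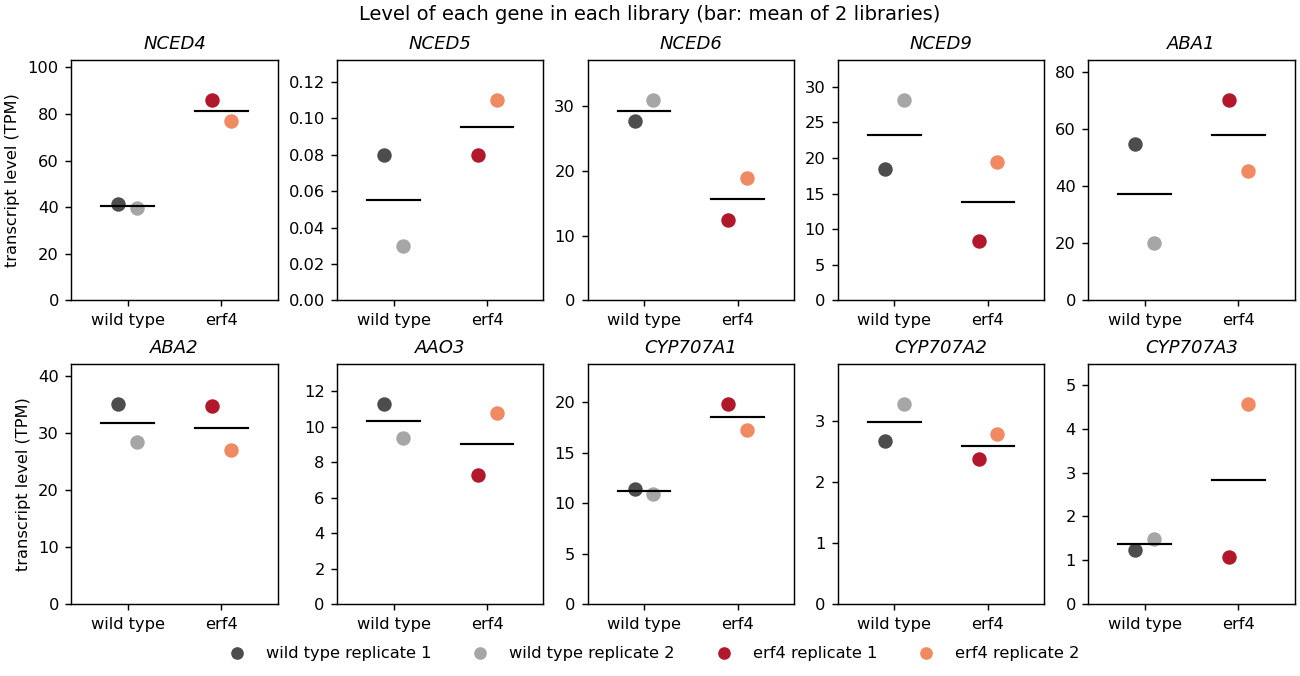
Transcript level in TPM (vertical axes, each from 0 and with its own scale) of the 10 genes in the 2 wild-type and 2 erf4 libraries. Points are libraries and bars are genotype means; NCED4 and CYP707A1 stand apart upward in erf4 and NCED6 stands apart downward, while ABA1, NCED9 and CYP707A3 spread widely within a genotype.

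NCED4 had the highest mean of the 10 transcripts in both genotypes, although ABA1 was higher in wild type replicate 1. It had 41.3 and 39.7 TPM in wild-type seeds and 85.9 and 77.0 TPM in erf4. The wild-type libraries nearly coincided and both erf4 libraries lay far above them. The mean went from 40.5 ± 1.13 TPM to 81.5 ± 6.29 TPM (SD, n = 2), a ratio of 2.01. On the log2(TPM + 1) scale the difference was 0.99 (SE 0.14). Its value was 1.07 without erf4 replicate 2, the library in which embryo storage transcripts were scarce, and 0.91 without erf4 replicate 1.

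The NCEDs that supply ABA synthesis in seeds pointed the other way. NCED6, known for its expression in the endosperm, had 27.7 and 30.9 TPM in wild-type seeds against 12.5 and 18.9 TPM in erf4. Both erf4 libraries were below both wild-type libraries. The wild-type mean was 1.87 times the erf4 mean, and the log2 difference of -0.88 (SE 0.23, 95% confidence interval -1.48 to -0.29) was not called (limma adjusted p = 0.548). NCED9, known for expression in the seed coat and embryo, had 18.4 and 28.1 TPM in wild-type seeds against 8.31 and 19.4 TPM in erf4. Here erf4 replicate 2 lay inside the wild-type range and erf4 replicate 1 was the lowest library. The log2 difference of NCED9 was -0.79 (SE 0.42, interval -1.86 to 0.29, limma adjusted p = 0.859), and it shrank to -0.22 without erf4 replicate 1. NCED5, known to add to ABA synthesis beside NCED3 in drought, was hardly detected, at 0.08 and 0.03 TPM in wild-type seeds and 0.08 and 0.11 TPM in erf4, and was not tested.

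Endosperm and embryo markers also differed between the libraries, and their part in the NCED values was not tested. Of 7 endosperm markers 6 were tested, 4 of them above the wild-type range in erf4 and 1 below it (21.5% and 12.2% over all genes tested), and none was at 0 in any library. Their summed level was 1582 and 1237 TPM in wild-type seeds and 840 and 702 TPM in erf4, a sum carried by EPR1, an extensin-like proline-rich protein gene, with 1530 and 1189 TPM against 779 and 633 TPM. In contrast ZOU, an endosperm transcription factor gene, had 42.2 and 38.6 TPM against 45.1 and 50.5 TPM. In RNA from whole seeds, fewer cells of a type and less RNA per cell cannot be told apart. The 8 storage protein and oil body markers of the embryo summed to 31340 and 17020 TPM in wild-type seeds, 34390 TPM in erf4 replicate 1 and 1057 TPM in erf4 replicate 2, with none at 0. All 8 had a negative log2 difference (median -2.1), while 55.9% of all genes tested had a positive one. These differences leaned most on erf4 replicate 2, whose sum was the lowest, while the sum of erf4 replicate 1 was the highest. SESA3, the most abundant of them, had 9387 and 4932 TPM in wild-type seeds, and 10649 and 137 TPM in erf4. Of the 8, 0 lay above the wild-type range in erf4 and 2 below it.

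For ABA1, ABA2 and AAO3, the enzymes of synthesis before and after the cleavage step, the libraries of the genotypes overlapped, and none was called with genotype as the only term. ABA1 had 54.7 and 20.1 TPM in wild-type seeds against 70.0 and 45.4 TPM in erf4. The wild-type libraries differed 2.73-fold from each other, and erf4 replicate 2 fell between them. Its log2 difference was 0.75 (SE 0.49, interval -0.50 to 1.99, limma adjusted p = 0.945). Omitting wild type replicate 2 gave 0.04, against 1.45 when replicate 1 of that genotype was omitted. However, replicate 1 exceeded replicate 2 in both genotypes, 1.54-fold in erf4, and erf4 was higher at each replicate number. An offset shared by replicate number would also move these values, so they do not show that 1 library carried the difference. With the replicate number as a term ABA1 was called (SE 0.19, limma adjusted p = 0.0376), but the libraries are not known to be paired. ABA1 ranked the 4 libraries in the same order as the summed heat shock markers, at 272 and 57.3 TPM in wild-type seeds and 437 and 201 TPM in erf4, and as the photosynthesis markers, at 7821 and 5653 TPM against 9313 and 7544 TPM. Of the 7 photosynthesis markers 6 had both erf4 libraries over the wild type, against 21.5% of all genes tested, and none of the 4 heat shock markers did. The log2 difference was positive for all 7 (median 0.49) and all 4 (median 1.11), against 55.9% of all genes tested. No marker of either list was at 0, and the part of either list in the ABA1 values was not tested.

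ABA2 was nearly level, with 35.1 and 28.4 TPM in wild-type seeds against 34.8 and 27.1 TPM in erf4. Replicate 1 exceeded replicate 2 by 1.24-fold in wild-type seeds and 1.28-fold in erf4, more than the genotypes differed. The log2 difference of -0.04 (SE 0.20) had an interval from -0.55 to 0.47. AAO3 had 11.3 and 9.37 TPM against 7.28 and 10.8 TPM, with overlapping libraries. Its log2 difference was -0.19 (SE 0.25, interval -0.82 to 0.44). For both genes the limma adjusted p = 1.0.

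Breakdown was represented mainly by CYP707A1, which in developing seeds is known for expression during mid-maturation. It had 11.4 and 10.9 TPM in wild-type seeds against 19.9 and 17.3 TPM in erf4. As with NCED4, the wild-type libraries lay close together and both erf4 libraries stood above them. The ratio of means was 1.66 and the log2 difference 0.68 (SE 0.17, interval 0.24 to 1.12), not called over all genes (limma adjusted p = 0.525). CYP707A2, known for lowering ABA late in maturation and at imbibition, had 2.67 and 3.28 TPM against 2.38 and 2.79 TPM, with a log2 difference of -0.15 (SE 0.24, interval -0.76 to 0.47, limma adjusted p = 1.0). CYP707A3, best known from the response to rehydration in vegetative tissue, had 1.24 and 1.49 TPM against 1.08 and 4.57 TPM. Its erf4 libraries lay on opposite sides of the wild type: the log2 difference was 0.53 (SE 0.50, interval -0.75 to 1.81, limma adjusted p = 1.0), and -0.18 without erf4 replicate 2.

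The order of the transcripts differed between genotypes in the middle of the list. In the wild type the means ran from NCED4 through ABA1, ABA2, NCED6 and NCED9 to CYP707A1, AAO3, CYP707A2, CYP707A3 and NCED5. The ranges of neighbours in that order overlapped from NCED4 to NCED9, and for CYP707A1 and AAO3, and stood apart at the other steps. In erf4 NCED4, ABA1 and ABA2 stood apart from one another and from the rest, and CYP707A1, at 18.6 ± 1.80 TPM, came next, ahead of NCED6 at 15.7 ± 4.55 TPM and NCED9 at 13.9 ± 7.87 TPM (SD, n = 2). The ranges of these 3 genes overlapped in erf4.

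**Figure D2:**
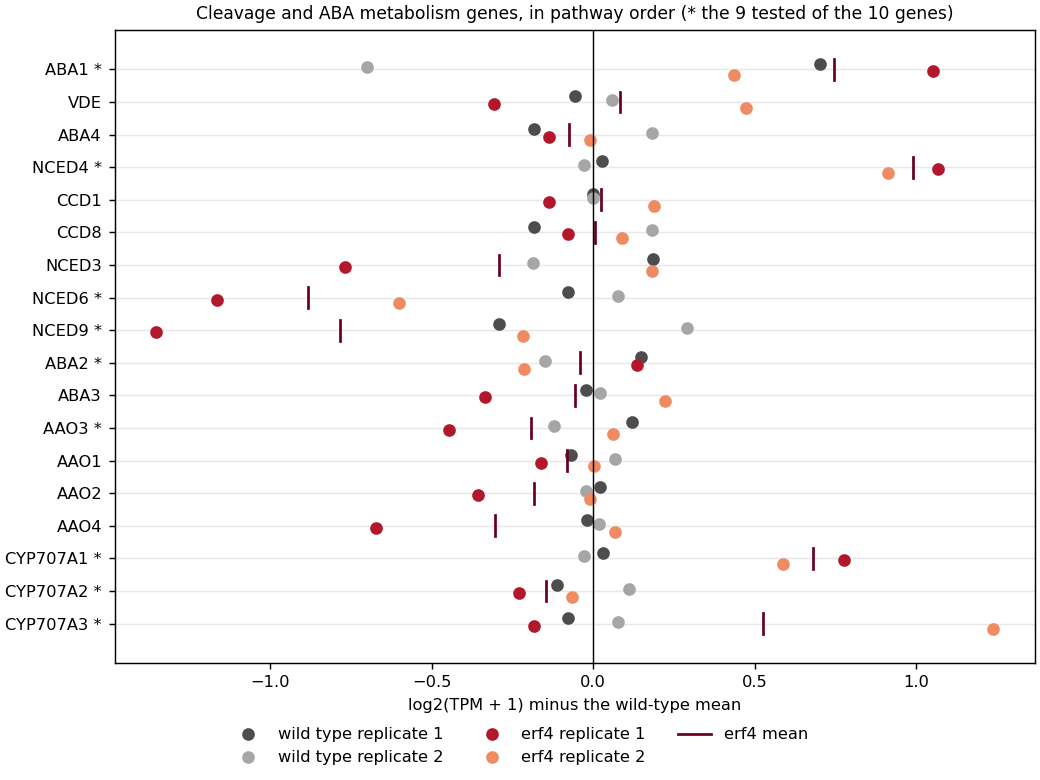
Level of 18 tested genes in each library as log2(TPM + 1) minus the gene's wild-type mean (horizontal axis), in the order of the pathway from epoxidation to hydroxylation. Points are the 4 libraries and vertical bars the erf4 means; the bars of NCED4 (0.99) and CYP707A1 (0.68) have both erf4 points to the right of the wild type, and that of NCED6 (-0.88) has both to the left.

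Ratios taken within a library do not depend on a scaling factor of that library, and they put the opposite differences side by side. They were formed after the values were seen and carry no test. NCED6 had 2.42 and 2.83 times the level of CYP707A1 in wild-type seeds, but 0.629 and 1.09 times in erf4. The ratio of NCED9 to CYP707A1 was 1.61 and 2.57 against 0.419 and 1.12. Summed, NCED6 and NCED9 exceeded the 3 CYP707A genes by 3.01 and 3.76 times in wild-type seeds, and stood at 0.892 and 1.56 times their level in erf4. All erf4 values of these 3 ratios lay below the wild-type values, in erf4 replicate 1 further than in erf4 replicate 2. As NCED6 was lower and CYP707A1 higher in both erf4 libraries, their ratio had to separate the genotypes. The levels of NCED9 alone overlapped.

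The proportion of NCED6 and NCED9 to each other overlapped between genotypes. The ratio of NCED9 to NCED6 was 0.665 and 0.909 in wild-type seeds and 0.665 and 1.03 in erf4, so it differed more between replicate 1 and replicate 2 than between genotypes. The ratio of NCED4 to CYP707A1 was 3.61 and 3.63 in wild-type seeds and 4.33 and 4.45 in erf4, a narrow span in which the erf4 values were the higher. In contrast the ratio of NCED4 to NCED6 was 1.49 and 1.28 in wild-type seeds and 6.88 and 4.07 in erf4. NCED4 was picked for being higher in erf4, so its higher ratios there follow in part from that choice.

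**Figure D3:**
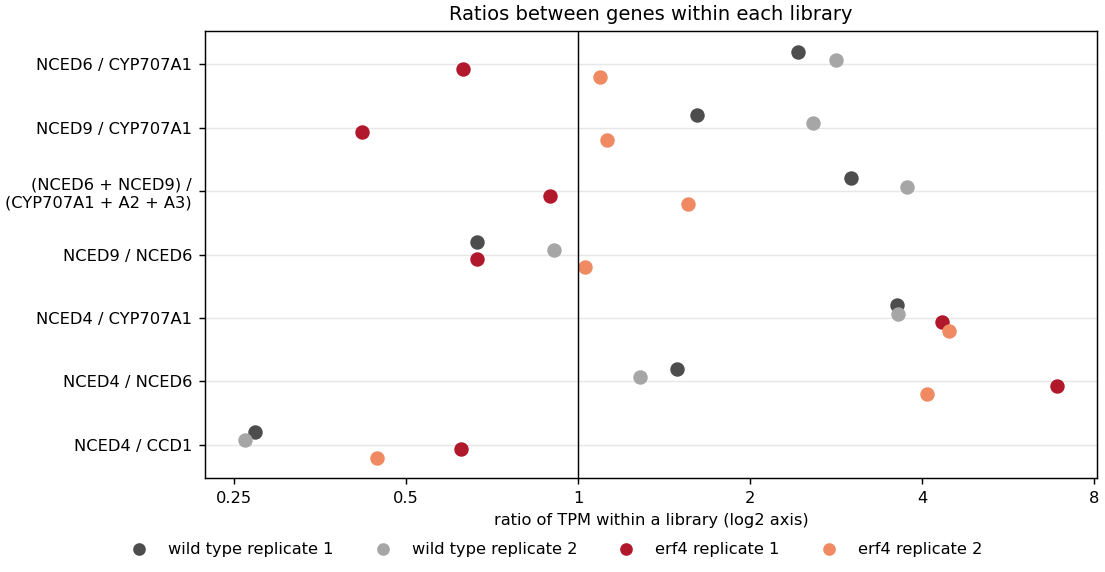
Ratio of TPM between genes within each library, on a log2 axis; points are the 4 libraries and the vertical line marks equal levels. The NCED6 to CYP707A1 ratio is 2.42 and 2.83 in wild-type seeds and 0.629 and 1.09 in erf4, whereas the NCED9 to NCED6 ratio overlaps, at 0.665 and 0.909 against 0.665 and 1.03.

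Within the carotenoid cleavage family of 9 genes, CCD1 rather than any NCED dominated. CCD1 (AT3G63520), which cleaves a broad range of carotenoids and apocarotenoids, had 152 and 152 TPM in wild-type seeds and 138 and 173 TPM in erf4 and held 55.1% to 61.5% of the family's summed TPM. NCED4 held 16.7% and 15.4% of it in wild-type seeds and 34.4% and 26.0% in erf4. The share of NCED6 was 11.2% and 12.0% against 5.0% and 6.39%, and that of NCED9 was 7.47% and 10.9% against 3.33% and 6.56%. The higher share of NCED4 in erf4 follows in part from the choice of the genes. NCED4 is part of the sum, so its higher level in erf4 lowers the share of every other gene. The NCED9 levels themselves overlapped between genotypes. The family's total was 247 and 258 TPM in wild-type seeds and 250 and 296 TPM in erf4. NCED3 (AT3G14440), the stress-induced NCED of leaves, was low at 4.0 and 2.86 TPM against 1.58 and 3.99 TPM.

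CYP707A1 held 70.1% and 68.4% of the summed TPM of the 4 CYP707A genes in wild-type seeds and 82.9% and 68.5% in erf4. The share of CYP707A2 was 16.4% and 20.5% against 9.94% and 11.1%, lower in both erf4 libraries, although its TPM overlapped between genotypes. The sum of the 4 genes was 16.3 and 15.98 TPM in wild-type seeds and 23.95 and 25.25 TPM in erf4. Of the aldehyde oxidases, AAO3 made up only 4.71% to 5.83% in any library. AAO4 (AT1G04580), known for making benzoic acid in siliques, held 91.5% to 93.0%, with 180 and 185 TPM in wild-type seeds against 114 and 191 TPM in erf4.

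**Figure D4:**
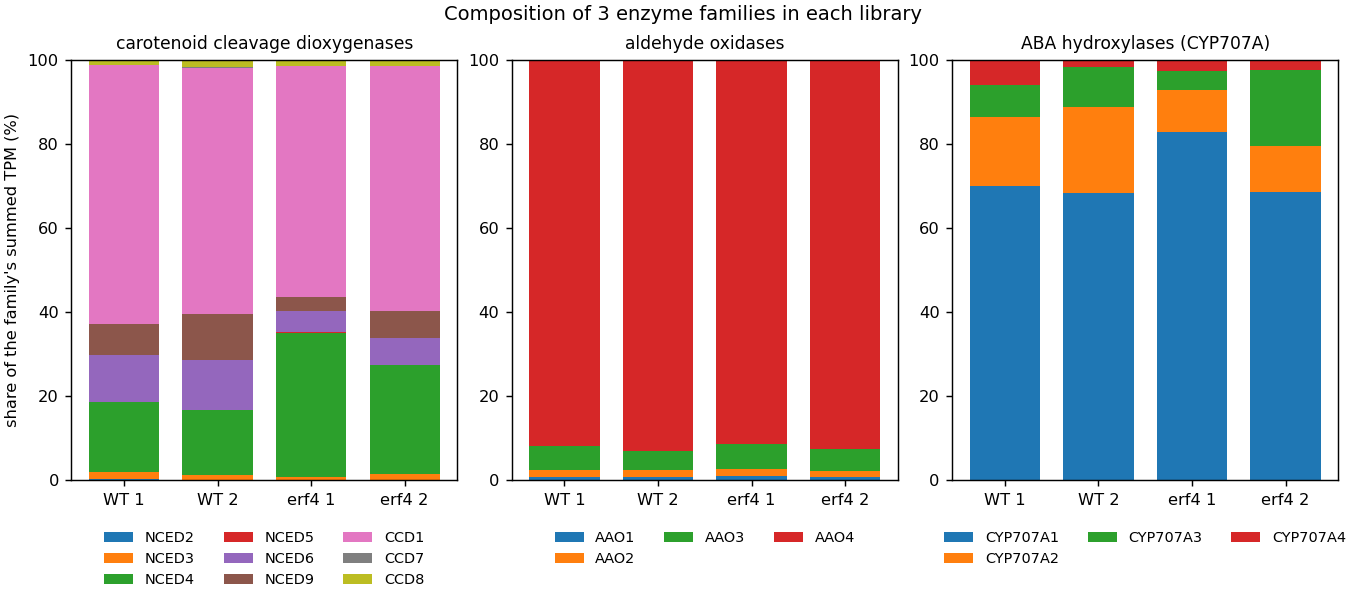
Share of each gene in the summed TPM of its enzyme family (vertical axis, in percent, stacked to the whole) in each of the 4 libraries. CCD1 and AAO4 hold most of their families in all 4. The NCED4 share is 34.4% and 26.0% in erf4 against 16.7% and 15.4% in wild-type seeds, and NCED4 was picked for being higher in erf4.

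The other genes of cleavage and ABA metabolism lay within the spread of the libraries. Of 12 such genes 9 were tested and 0 were called in either direction. None, 0 of 9, had both erf4 libraries outside the wild-type range on 1 side, against 21.5% above and 12.2% below over all genes tested. The median log2 difference was -0.07 against 0.03 over all genes tested. ABA3 (AT1G16540), whose product activates the cofactor of AAO3, had 21.0 and 21.7 TPM against 16.7 and 25.0 TPM. ABA4 (AT1G67080), required for neoxanthin synthesis, had 25.6 and 33.3 TPM against 26.5 and 29.0 TPM, and VDE (AT1G08550), which reverses the epoxidation by ABA1, had 14.4 and 15.6 TPM against 11.9 and 21.2 TPM. For ABA3 and VDE the erf4 libraries lay on either side of the wild type, and for ABA4 both lay inside its range. AAO1 (AT5G20960), AAO2 (AT3G43600) and CCD8 (AT4G32810), the last a strigolactone synthesis gene, stayed between 1.08 and 4.31 TPM in every library. NCED2 (AT4G18350), CCD7 (AT2G44990) and CYP707A4 (AT3G19270) were below 1 TPM in all 4 libraries and were not tested.

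Upstream, the 11 carotenoid synthesis genes were all measured, with 4 above the wild-type range in erf4, 1 below it and 0 called (median log2 difference 0.18), against 21.5% above and 12.2% below over all genes tested. PSY (AT5G17230), whose product phytoene synthase starts the pathway, had 76.0 and 66.6 TPM against 70.7 and 83.9 TPM. PDS3 (AT4G14210), the phytoene desaturase gene, had 57.0 and 39.9 TPM against 59.8 and 56.1 TPM. Neither gene separated the genotypes, and the median of the list was 0.02 both without erf4 replicate 2 and without wild type replicate 2.

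Downstream of the hormone, 0 genes were called in any list; the counts of genes above and below the wild-type range again stand against 21.5% and 12.2% of all genes tested. Of 14 ABA receptor genes 10 were tested, with 1 above and 1 below the wild-type range (median log2 difference -0.15, and 0.05 without erf4 replicate 1). The most abundant, PYR1 (AT4G17870), had 83.5 and 98.1 TPM against 71.3 and 91.1 TPM, and PYL7 (AT4G01026) had 34.2 and 47.0 TPM against 33.2 and 38.6 TPM. The receptors inhibit the clade A protein phosphatases, of which 8 of 9 were tested, with 0 above and 1 below the range (median -0.05). That gene was HAI1 (AT5G59220), with 268 and 328 TPM against 217 and 238 TPM (log2 difference -0.38, SE 0.17, limma adjusted p = 0.777), while AHG3 (AT3G11410) had 98.8 and 97.9 TPM against 87.6 and 107 TPM.

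Among ABA-activated kinases and transcription factors, both erf4 libraries were below the wild type for 5 of 12 tested genes and above it for 0, against 12.2% below over all genes (median log2 difference -0.22, and 0.04 without erf4 replicate 1). EEL (AT2G41070), a bZIP factor gene of seed maturation, had 139 and 161 TPM in wild-type seeds against 62.4 and 87.3 TPM in erf4. Both erf4 libraries were well under the wild type, with a log2 difference of -1.01 (SE 0.21, limma adjusted p = 0.461). The kinase gene SNRK2.2 (AT3G50500) had 91.6 and 109 TPM against 89.9 and 113 TPM, without separation.

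ABA response targets gave no common direction. Of 8 genes 6 were tested, with 1 above and 1 below the range (median log2 difference 0.10, and -0.42 without erf4 replicate 1). The cold- and ABA-induced gene KIN2 (AT5G15970) had 165 and 105 TPM against 190 and 104 TPM and followed the replicate number rather than the genotype. The dehydrin gene COR47 (AT1G20440) had 91.0 and 85.9 TPM against 106 and 95.6 TPM, above the wild-type range in both erf4 libraries. The gene below the range, the desiccation-response gene RD29B (AT5G52300), was named after its values were seen and had 5.32 and 4.41 TPM against 1.88 and 1.87 TPM (log2 difference -1.02, SE 0.23, limma adjusted p = 0.483). Of 10 genes for ABA conjugation, release and transport 7 were tested, with 1 above and 1 below the range. These were the exporter gene ABCG25 (AT1G71960), with 26.8 and 25.3 TPM against 28.0 and 28.8 TPM, and ABCG31 (AT2G29940), an endosperm exporter gene, with 27.3 and 24.9 TPM against 21.4 and 22.6 TPM.

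**Figure D5:**
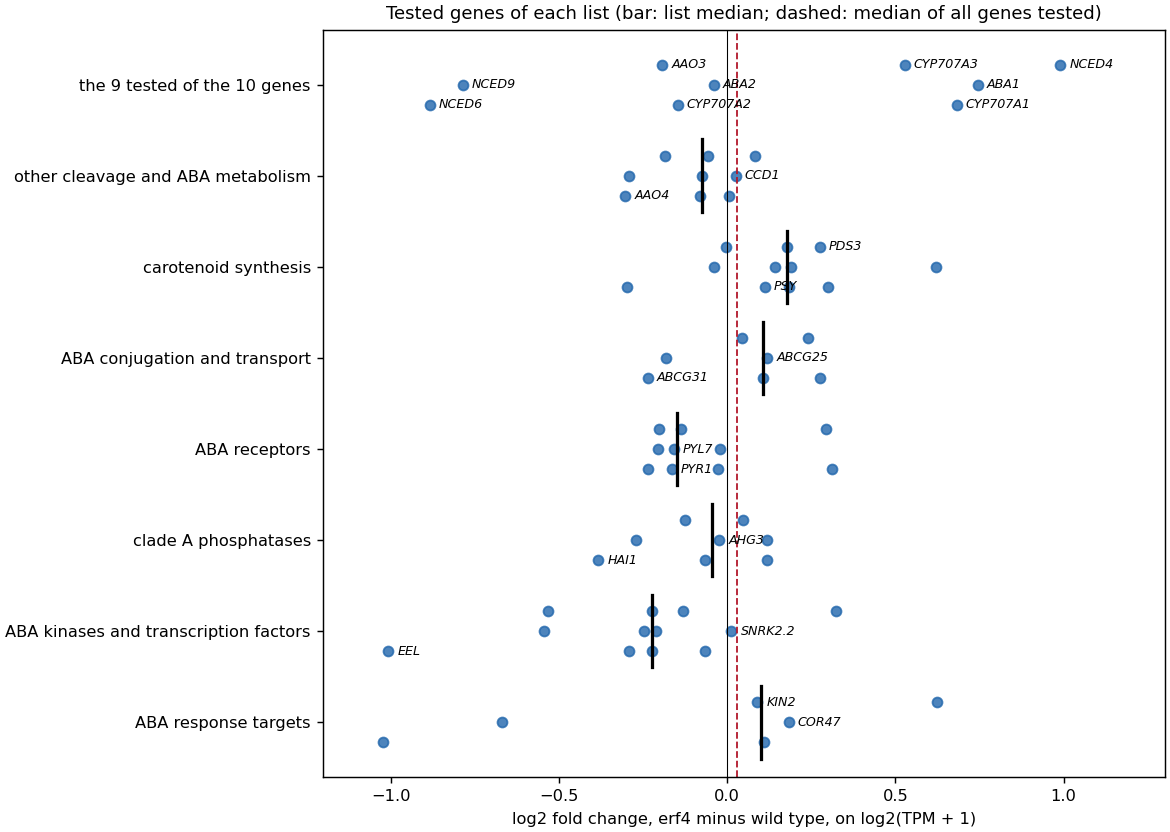
Log2 fold change from wild type to erf4 on the log2(TPM + 1) scale (horizontal axis) of the tested genes of each list; each point is a gene, black bars are list medians and the dashed line is the median of all tested genes (0.03). The 9 tested of the 10 chosen genes spread from -0.88 (NCED6) to 0.99 (NCED4), and of the transcription factors EEL lies lowest at -1.01.

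Genes whose profile over the 4 libraries was closest to that of NCED4 were sought among 16123 tested genes with a mean of at least 5 TPM, by the distance between log2(TPM + 1) values centred on each gene's mean. The closest were UPB1 (AT2G47270, distance 0.0734), a transcription factor gene known from the root, AT1G21670 (0.0756), AT5G11220 (0.134), the aquaporin gene PIP1A (AT3G61430, 0.136) and RLP44 (AT3G49750, 0.137), for a receptor-like protein. UPB1 had 7.90 and 7.14 TPM in wild-type seeds against 17.1 and 15.7 TPM in erf4, and PIP1A had 68.7 and 58.8 TPM against 135 and 114 TPM. Among the chosen genes CYP707A1 was closest to NCED4 at a distance of 0.309, ABA1 followed at 1.04 and NCED9 was farthest at 2.05, of the 6 with a mean of at least 5 TPM. With only 4 libraries such likeness is a description. NCED4 was picked for being higher in erf4, so the higher erf4 level of the genes closest to it follows from the search.

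ERF4 itself (AT3G15210) had 38.0 and 33.0 TPM in wild-type seeds and 34.6 and 41.3 TPM in erf4, so the transcript level did not separate the genotypes and does not check the labels. Seed coat markers were present in every library, 5 of 8 lay above the wild-type range in erf4 and 1 below it, and their sum was 1218 and 1216 TPM against 1312 and 1449 TPM. Silique wall and leaf markers summed to 650 and 605 TPM against 793 and 761 TPM, with 5 of 7 above and 2 below the range and none at 0. Over all genes tested the shares were 21.5% above and 12.2% below. No gene of either list was called, and the part of these markers in the NCED4 and CYP707A1 values was not tested.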

How the data were processed

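RNA was measured in 4 libraries of whole seeds. The authors deposited gene-level TPM, rounded to 2 decimals, and the mean TPM of each genotype, which was not used. Per the submitters' processing notes the tools included fastp, HISAT and RSEM. Their versions, the annotation and the genome build were not given in the sources used here. TPM keeps no read counts, so library depth is unknown and no counting interval is given; 20295 to 20630 genes per library had at least 1 TPM.

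Genes with at least 1 TPM in at least 2 libraries (20804) entered a limma fit of log2(TPM + 1) values (limma 3.58.1, R 4.3.3; mean-variance trend, genotype the only term, two-sided, Benjamini-Hochberg over all genes, threshold 0.05). The log scale understates changes of low genes. The fit was run on simulated data with independent noise in each library and gene spreads shuffled among genes. Such data hold no deviation common to libraries of the same replicate number, so they cannot show how the fit behaves with it. Groups came from sample titles. The genes, the lists and the alternatives were chosen with earlier results of these data known. Named genes are the 10 chosen genes, the 12 other metabolism genes, the 2 most abundant genes of each further list or, for marker lists, up to 2, and the 5 profiles closest to NCED4. Marker genes called with the replicate number as a term are named as well. Of the list genes, 127 of 127 matched a TAIR10.1 locus, used only for names and neighbours. A planned comparison of protein and promoter sequences was not made here. Alternatives covered pseudocount, filter, scaling, variance model, replicate number as a term, and leaving out each library.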

Additional observations from a re-analysis of the deposited data

How the results depend on the processing

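The log2 difference of NCED4, for which the genes were picked, ran from 0.91 to 1.07 over 12 alternatives, given as a description. CYP707A1 (0.54 to 0.78), NCED6 (-1.17 to -0.60) and NCED9 (-1.35 to -0.22) kept their direction in all 12. Leaving out 1 library turned the direction of 3 genes whose difference was not called: ABA2 (-0.04 with all libraries) ran from -0.21 to 0.14 and was positive without erf4 replicate 2 and, at 0.11, when wild type replicate 1 was left out. AAO3 (-0.19) ran from -0.45 to 0.062, positive without erf4 replicate 1, and CYP707A3 (0.53) ran from -0.18, without erf4 replicate 2, to 1.24. With a lone library in a genotype, limma assumes that it varies like the other genotype.

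The number of called genes moved from 0 to 44 of 33187 without a filter (0.133%), and leaving out 1 library gave 0 to 204, with 204 (0.999%) without wild type replicate 1 and 49 (0.24%) when wild type replicate 2 was left out; NCED4 aside, for which no test is given, none of the 10 genes was among them. With the replicate number as a block, 1083 of 20804 genes were called (5.21%), 627 higher and 456 lower. These included 2 of the chosen genes, NCED6 (limma adjusted p = 0.0169) and ABA1 (limma adjusted p = 0.0376), and 1 gene of the pathway lists, EEL (limma adjusted p = 9.31e-04). NCED9 (limma adjusted p = 0.0513) and CYP707A1 (limma adjusted p = 0.0914) were not called. Among marker genes the block called BAN, TGG2, PHE1, RCA, RBCS1B, LHCB2.1, LHCB3, HSP101, HSP90.1, HSFA2 and HSP17.6A, higher in erf4. It also called EPR1, CRA1 and OLEO1, lower in erf4. Same-numbered libraries deviated together (correlation 0.351 over 20804 genes, across genes). With 2 libraries per genotype and no stated meaning of the numbers, the libraries are not known to be paired. The cause of the shared deviation was not tested. The median-of-ratios and quantile rescalings called 0 genes, and so did the other pseudocounts, the higher filter and the fit without a trend. The higher filter left out CYP707A2 and CYP707A3. Depth is unknown, so the counting error of the low genes NCED5, CYP707A2 and CYP707A3 cannot be given.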

Other observations

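NCED4 and CYP707A1, the 2 chosen genes above the wild-type range in erf4, are near neighbours on chromosome 4, with 7 annotated loci between them. Of these, 5 were tested: 2 had both erf4 libraries over the wild type and 0 had both under it (21.5% and 12.2% over all genes tested), with log2 differences from 0.01 to 0.34 (median 0.08), against 0.99 for NCED4 and 0.68 for CYP707A1. The larger of those 2 was AT4G19200, with 261 and 229 TPM in wild-type seeds against 302 and 318 TPM in erf4, and the other, AT4G19180, had 7.5 and 7.84 TPM against 8.15 and 9.07 TPM. On the far side of NCED4, AT4G19160 had 58.7 and 64.3 TPM against 45.1 and 60.9 TPM, with overlapping libraries, and AT4G19140 had 17.1 and 18.9 TPM against 19.6 and 18.8 TPM, also overlapping. Both erf4 libraries were above the wild type for AT4G19150, with 47.7 and 46.5 TPM against 52.4 and 51.9 TPM, and for AT4G19130, with 1.6 and 1.24 TPM against 2.44 and 2.13 TPM (log2 difference 0.44). These loci were looked up after the values of the pair were seen.

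The gap between same-genotype libraries depended on the gene. On the log2(TPM + 1) scale, replicate 1 minus replicate 2 was 0.06 in wild-type seeds and 0.16 in erf4 for NCED4, and 0.06 and 0.19 for CYP707A1. The same gap was 1.40 and 0.62 for ABA1, and -0.58 and -1.14 for NCED9. ABA1 and NCED9 thus leaned opposite ways between the replicate numbers in both genotypes.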
